A study of Mus musculus with 4 samples.

Results

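Hemidesmosomes are the junctions that fasten basal keratinocytes, the lowest cell layer of the epidermis and the outer layer of the hair follicle, to the basement membrane beneath them. At their core the integrin alpha 6 beta 4 binds laminin-332 outside the cell, while plectin and the dystonin protein BPAG1e tie it to keratin filaments inside, and collagen XVII and the tetraspanin CD151 hold the complex together. Inherited loss of most of these proteins causes blistering of the skin, and collagen XVII and integrin alpha 6 are also widely used as markers of epidermal and hair follicle stem cells.

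Transcripts of 8 anchoring genes were followed here: Itga6 and Itgb4 (the integrin chains), Col17a1 (collagen XVII), Dst (dystonin), Plec (plectin, Plec1 in the files), Cd151, and Lama3 and Lamb3 (the alpha 3 and beta 3 chains of laminin-332). They were chosen by gene name among the probes that are not controls, and are 8 of 31895 names on the array. Together they have 12 probes, with 2 each for Dst, Plec, Cd151 and Lama3 and 1 each for the other 4 genes. Both groups were primary skin epithelial cells of adult C3H/HeN mice that carried CD49f, the protein of Itga6, and CD34 on their surface. The 0p cells were taken by flow sorting, and the 15p cells were sorted for the same surface proteins at the 15th of a row of cultures on collagen type I with the growth factor Wnt-3a. Wnt-3a is labelled as a treatment in both channels, and no genotype or transgene is listed for either. A time of culture and a dish size are also labelled for every sample. The labels therefore do not show whether the 0p cells were cultured before their RNA was taken. The comparison cannot be read as uncultured against cultured cells. Each of 4 arrays held both RNAs, 1 in Cy5 and 1 in Cy3. Each of 2 biological replicates has a forward array, with 15p in Cy5, and a swapped array, with 15p in Cy3. Whether separate mice gave the replicates is not labelled, so the spread between these 2 samples may be technical. The p-values and intervals of limma rest mostly on that spread pooled over all tested genes (prior degrees of freedom 8.83, residual 1). They can therefore be wider or narrower than the SD of a single gene would give.

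None of the 8 genes passed the test of 15p against 0p cells over all 17362 genes. Adjusted p ranged from 0.760 for Lama3 to 0.991 for Itgb4 (limma, two-sided, Benjamini-Hochberg adjustment over all genes), and 0% of all genes passed at an adjusted p of 0.05 in either direction. At an unadjusted p under 0.05 the count was 0 of 8, where 6.30% of all tested genes fell. The mean ratios of 15p over 0p lay between -0.10 (Dst) and 0.08 (Col17a1) on the log2 scale. The 95% intervals (limma) reached at most 1.19-fold lower, for Dst, and 1.15-fold higher, for Col17a1. An interval within 1.5-fold in both directions was found for all 8 genes and for 99.7% of all tested genes. A miss of the threshold does not show that levels were equal. These intervals rest on 2 replicates and may be too narrow, because the arrays of a pair did not deviate alike. In a mixed RNA, fewer cells of a type and less RNA per cell cannot be told apart.

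**Figure D1:**
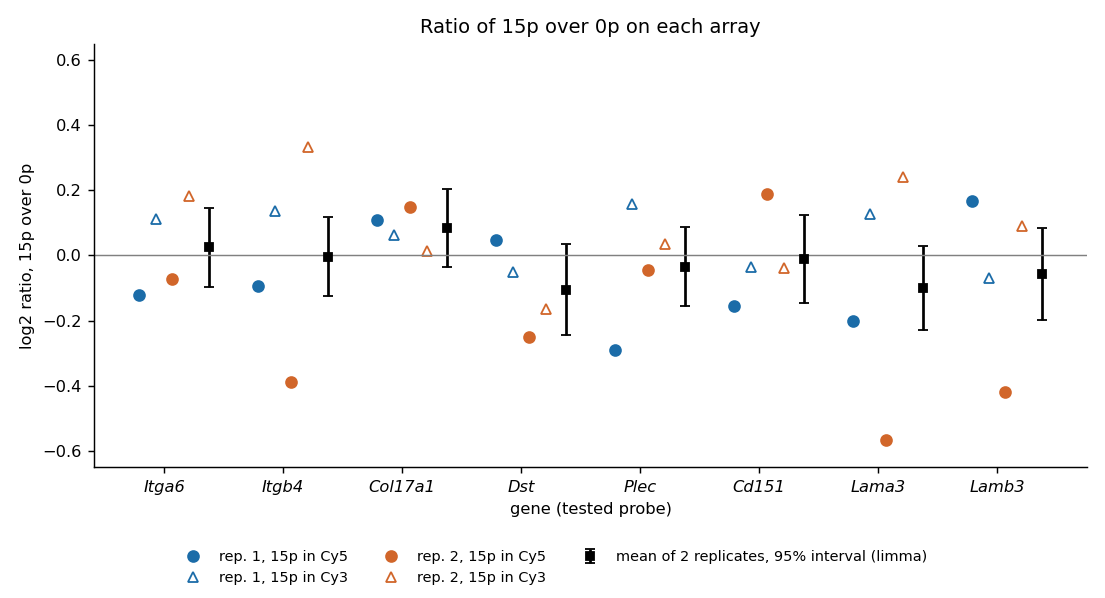
The log2 ratio of 15p over 0p (y axis) on each of 4 arrays for the probe that stood for each gene (x axis); circles are forward arrays (15p in Cy5), triangles swapped arrays (15p in Cy3), colours the replicates, and black squares the mean of 2 replicates with its 95% interval from limma. All 8 intervals include 0, and Col17a1 alone of these genes has all 4 arrays above 0.

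Both integrin chains stayed close to a ratio of 0, and their arrays differed mainly by dye orientation. Itga6, whose protein was used to sort both groups, is measured by a probe at chr2:71694756-71694815 (mm9, plus strand). Its log2 intensity in 15p cells was 14.54 (forward) and 14.66 (swapped) in replicate 1, then 14.69 and 14.80 in replicate 2. Pairs of values below keep this order. In 0p cells the same arrays gave 14.66, 14.55, 14.76 and 14.62. The levels overlapped, and 15p was the lower RNA on both forward arrays and the higher on both swapped ones. The mean ratio was 0.03 ± 0.04 (log2, SD, n = 2; adjusted p = 0.930, limma).

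Itgb4, the chain with the long cytoplasmic tail that plectin binds, is measured by a probe at chr11:115869666-115869725 (mm9, plus strand). Its ratios were -0.09 and 0.14 for replicate 1, and -0.39 and 0.33 for replicate 2. The last pair held its widest split: the level was 14.15 in 15p against 14.54 in 0p on the forward array, and 14.44 against 14.10 on the swapped one. Averaged over each pair the split cancelled to 0.02 and -0.03, so the mean ratio was -0.0032 ± 0.035 (SD, n = 2) although single arrays lay far outside that SD. Here and for all other genes, the SD does not contain the spread between the dye orientations. The ratio of Itga6 minus that of Itgb4, the partner chains of 1 receptor, was 0.03 ± 0.08 (SD, n = 2).

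Col17a1, a transmembrane collagen of the hemidesmosome, was positive on every array, as 1 of 8 genes against 3.67% of all tested genes. None of the 8 was negative on every array (3.12% of all genes), so 1 of 8 had the same sign throughout, against 6.78%. Its probe lies at chr19:47720894-47720953 (mm9, minus strand). The ratios were 0.11 and 0.06 for replicate 1, and 0.15 and 0.01 for replicate 2. The mean was 0.08 ± 0.0036 (SD, n = 2; 95% interval -0.04 to 0.20; adjusted p = 0.785, limma), a fold of 1.06. Levels were 14.19 to 14.46 in 15p cells and 14.08 to 14.31 in 0p cells, so the RNAs overlapped over the arrays in spite of the shared sign. Levels of 15p and 0p that did not overlap over the 4 arrays were found in 0 of 8 genes and in 0.478% of all genes.

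The plakins join the integrin to keratin filaments. Plec is measured mainly by a probe at chr15:76001454-76001513 (mm9, minus strand), with levels of 15.14 to 15.54 in 15p cells and 15.10 to 15.56 in 0p cells. Its ratios were -0.29 and 0.16, then -0.04 and 0.04, with a mean of -0.03 ± 0.04 (SD, n = 2; adjusted p = 0.896, limma). Plec thus had its widest split between dyes in replicate 1, while Itgb4 and Lama3 had theirs in replicate 2.

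Dst had the lowest mean ratio of the 8 genes, -0.10 ± 0.15 (SD, n = 2; 95% interval -0.25 to 0.04; adjusted p = 0.772, limma). The probe that stood for it lies at chr1:34364644-34364703 (mm9, plus strand). Its levels in 15p cells were 10.03 and 9.90, then 9.70 and 10.00, against 9.98, 9.95, 9.95 and 10.16 in 0p cells. Replicate 1 gave a ratio of -0.0020 and replicate 2 gave -0.21, so the low mean came from replicate 2, where both arrays were negative. No deposited probe listed the accession of Dst variant e, the epidermal form BPAG1e (0 probes), and the Dst probes are annotated in the files as transcript variants a and b. The Dst values therefore do not measure BPAG1e by itself, and whether they include it at all is not shown.

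The sequences of 3 probes are shown because their values depart from those of another probe of the same gene or locus. The first lies over the end of the Cd151 coding sequence (chr7:148656555-148656614, mm9, plus strand). Of its 60 bases the 42 up to the stop codon are printed, with the stop codon in capitals. The second is a Dst probe whose 60 bases are listed over a span of 2053 bases (chr1:34209337-34211389, mm9, plus strand). The third lies at chr1:34239785-34239844 (mm9, plus strand) and is described in the files as isoform 5 of bullous pemphigoid antigen 1, an older name of dystonin. It carries a transcript identifier in place of a gene name, so the rule did not make it a member. All 3 are printed 5′ to 3′ as the deposited files give them, and the last 2 have no capitals.
Cd151 probe, part: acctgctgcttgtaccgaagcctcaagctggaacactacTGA
Dst probe, variant b: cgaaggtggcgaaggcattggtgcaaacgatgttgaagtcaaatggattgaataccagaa
Isoform 5 probe: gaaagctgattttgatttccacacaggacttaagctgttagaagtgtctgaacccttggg

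The Dst probe printed above had ratios of 0.03 and -0.10, then 0.11 and -0.05, and a mean of -0.0014. It had a mean level of 7.94 in 15p cells and 7.95 in 0p cells. Its mean ratio exceeded that of the tested Dst probe by 0.10. The isoform 5 probe had ratios of -0.12 and 0.12, then -1.11 and -0.08. On the forward array of replicate 2 its level was 11.40 in 15p against 12.50 in 0p, a gap that the swapped array of the same RNAs did not show (12.47 against 12.55). Its mean of -0.30 ± 0.42 (SD, n = 2) did not pass the test (adjusted p = 0.787, limma on single probes). Its unadjusted p was 0.035 (limma on single probes), and this probe is not part of the count of 0 of 8 given above.

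Cd151 encodes a tetraspanin that binds the laminin-binding integrins. The brighter of its 2 probes, at chr7:148657237-148657297 (mm9, plus strand), had ratios of -0.15 and -0.04, then 0.19 and -0.04. The replicate means were -0.10 and 0.08, and the mean was -0.01 ± 0.12 (SD, n = 2; adjusted p = 0.975, limma). The other probe, over the stop codon printed above, was negative on 3 arrays (-0.32, -0.26 and -0.39) and 0.88 on the forward array of replicate 2. Its level in 15p cells was 11.83 on that array against 10.28 to 10.66 on the other 3, whereas its level in 0p cells stayed within 10.54 to 11.05. Because these opposite values nearly cancelled, the mean ratios of both Cd151 probes were close to each other, -0.01 and -0.02, although their arrays were not.

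**Figure D2:**
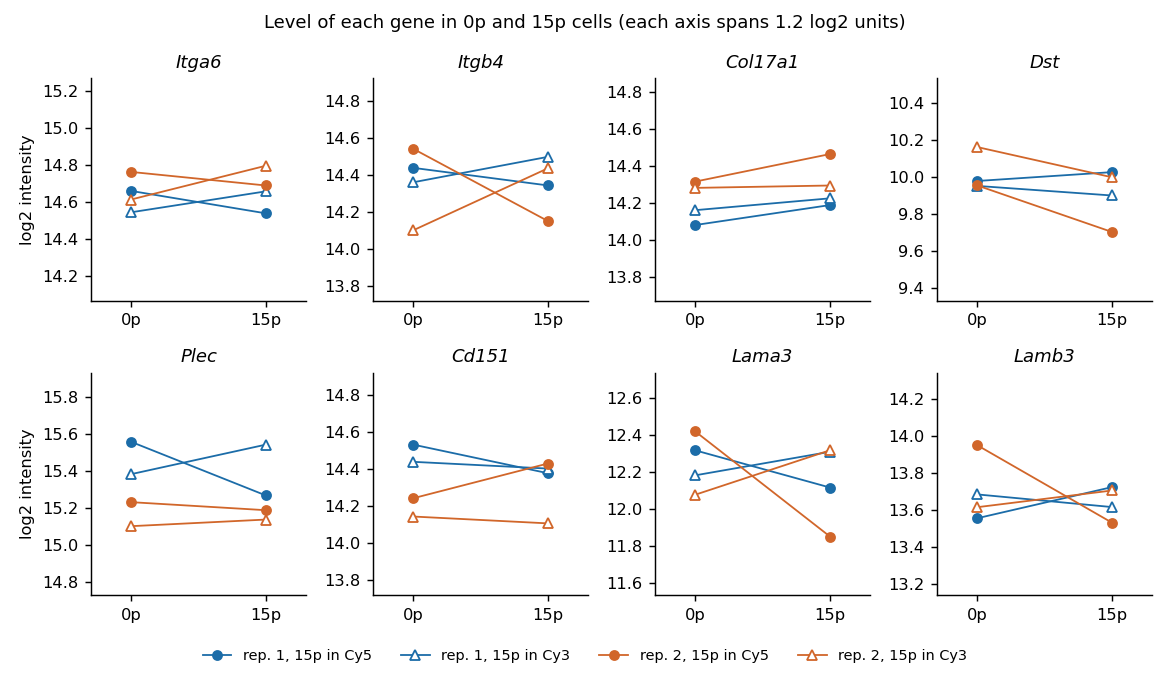
Log2 intensity (y axis, 1.2 units in every panel) of the probe standing for each gene in 0p and 15p cells (x axis); each line joins both RNAs of 1 of 4 arrays, with circles for forward arrays (15p in Cy5), triangles for swapped ones (15p in Cy3) and colours for the replicates. The lines of Itga6, Itgb4, Plec and Lama3 slope down on forward arrays and up on swapped ones, while all 4 lines of Col17a1 rise; levels of different panels cannot be compared.

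The laminin-332 chains are secreted by basal keratinocytes and form the ligand of the integrin. Lama3 lies on chromosome 18 and has 2 probes. The tested one had levels in 15p cells of 12.12 and 12.31, then 11.85 and 12.32, against 12.32, 12.18, 12.42 and 12.08 in 0p cells. Its ratios were thus -0.20 and 0.13, then -0.57 and 0.24, the widest array-to-array range of the 8 tested probes. The mean was -0.10 ± 0.09 (SD, n = 2; 95% interval -0.23 to 0.03; adjusted p = 0.760, limma).

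The other Lama3 probe had the reverse order by dye, at 0.10 and 0.22 on the forward arrays against -2.3e-05, that is no difference, and -0.16 on the swapped ones. Its mean was 0.04, higher than that of the tested probe by 0.14, and both probes list the same transcript accession. On the forward array of replicate 2 the probes were 0.79 apart. The sign of the mean ratio of Lama3 therefore differed between its probes, and neither passed the test.

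Lamb3 is measured by a probe at chr1:195167537-195167596 (mm9, plus strand). Its ratios were 0.17 and -0.07, then -0.42 and 0.09, so the replicates had opposite dye splits. The replicate means, 0.05 and -0.16, differed in sign, and the mean was -0.06 ± 0.15 (SD, n = 2; adjusted p = 0.858, limma). The ratio of Lama3 minus that of Lamb3 was -0.04 ± 0.06 (SD, n = 2), with -0.37 and 0.20 on the arrays of replicate 1 and -0.15 and 0.15 on those of replicate 2, so the small mean difference does not show that the single arrays matched.

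**Figure D3:**
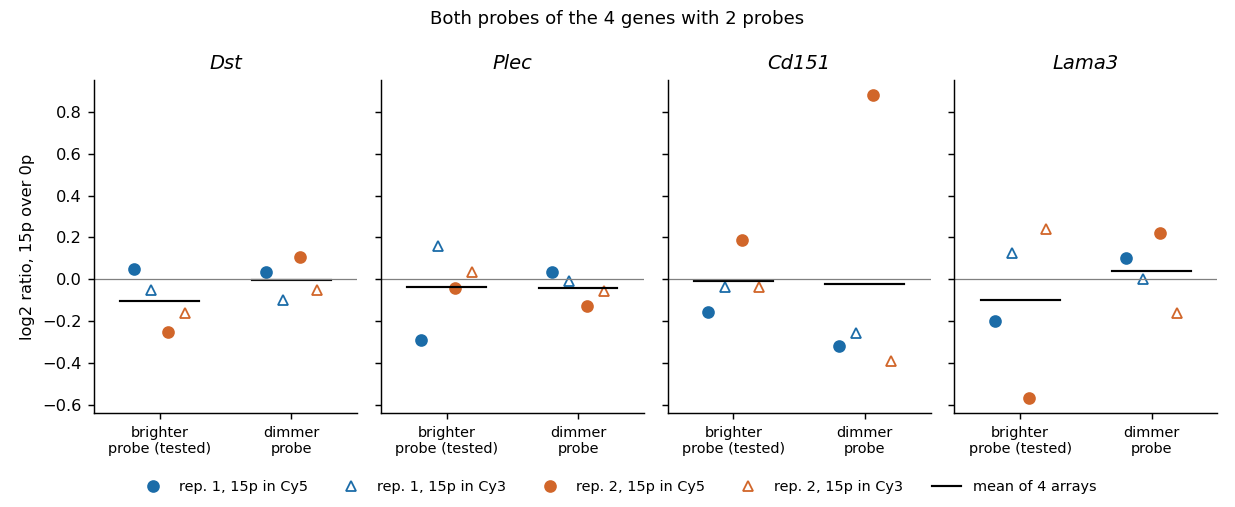
The log2 ratio of 15p over 0p (y axis) for both probes of Dst, Plec, Cd151 and Lama3 (x axis), with circles for forward arrays (15p in Cy5), triangles for swapped ones (15p in Cy3), colours for the replicates and a line at the mean of 4 arrays. The dimmer Cd151 probe has 1 array at 0.88 and 3 below 0, and the probes of Lama3 run in opposite order by dye.

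The second Plec probe, at chr15:76063393-76063452 (mm9, minus strand), is described in the files as first-exon variants of plectin. It was well above background in 15p cells on 3 of 4 arrays and in 0p cells on all 4. Its level was only 6.38 to 6.65 in 15p cells and 6.50 to 6.62 in 0p cells. Its ratios lay between -0.13 and 0.03, with a mean of -0.04. In the deposited processed intensity they were -0.30 and -0.0026, then -0.27 and -0.15, so the ratios of this dim probe depended on the processing. Of the 12 probes, 11 were well above background in both RNAs on every array, and all 8 genes passed the filter on dim probes through at least 1 probe. Of all 31895 names on the array, 17362 passed that filter, which asks for only 1 of the RNAs, and 16764 had a probe that passed in both RNAs.

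Itga6, Itgb4, Plec and Lama3 were lower in 15p on both forward arrays and higher on both swapped ones. This pattern was found in 4 of 8 genes and in 14.1% of all tested genes, and the reverse pattern in 0 of 8 genes and 18.1% of all genes, so either one held 4 of 8 genes and 32.2% of all. The forward minus the swapped mean was -0.57 for Lama3, -0.48 for Itgb4, -0.26 for Plec and -0.24 for Itga6. Over all tested genes the ratios within a dye-swapped pair correlated at -0.55 in replicate 1 and -0.40 in replicate 2 (Pearson, across genes that share an array and are not independent replicates). Between the forward arrays the correlation was 0.27 and between the swapped ones 0.41. Between replicate means it was 0.09. Dye orientation thus moved with the single-array ratios. An additive effect of the dyes cancels in the mean of a pair where both arrays have it equally, and the fits with a dye term gave the same means by construction. Whether the effect was equal on both arrays was not tested.

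**Figure D4:**
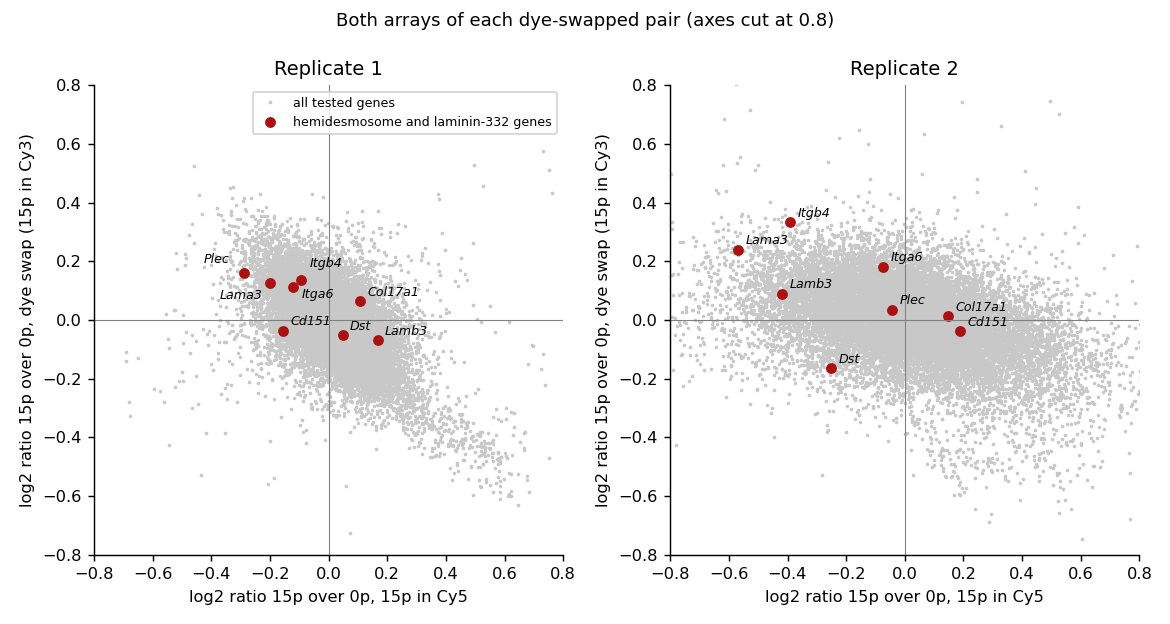
For each of 2 replicates, the log2 ratio of 15p over 0p on the forward array (x axis) against that on the swapped array (y axis); grey points are 17362 tested genes and red points the 8 anchoring genes, with axes cut at 0.8, which leaves out 13 genes in replicate 1 and 209 in replicate 2. Most red points lie left of 0 in both panels, with Lama3 farthest left and Itgb4 farthest up in replicate 2.

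The forward array of replicate 2 stood apart in spread. Its ratios had an SD of 0.29 over all tested genes, against 0.13 to 0.14 on the other 3 arrays. The largest ratio in size of Itgb4, Col17a1, Dst, Cd151, Lama3 and Lamb3 was on this array, which is 6 of 8 genes against 56.8% of all tested genes. A ratio beyond 2-fold there was found in 0 of 8 genes and 0.622% of all. The median ratio of the 8 genes there was -0.16, against 0.06 on its swapped array, and in replicate 1 it was -0.11 (forward) and 0.09 (swapped). Without the forward array of replicate 2, a fit with a dye term gave both dye orientations equal weight. The forward array of replicate 1 then stood alone for its orientation. Values with 1 array left out, here and below, are such estimates and not means of the arrays that remain. The estimate for Lamb3 turned from -0.06 to 0.09 and that for Itgb4 from -0.0032 to 0.07, neither past the threshold. The estimate for Lama3 moved from -0.10 to -0.0086 and that for Dst from -0.10 to -0.03.

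Leaving out the forward array of replicate 1 changed 3 calls. Dst, Lama3 and Lamb3 were then lower in 15p cells by 0.18, 0.19 and 0.20 on the log2 scale, with adjusted p of 0.033, 0.021 and 0.013 (limma). The forward array of replicate 2, which had the wider spread, was then the only forward array and alone gave the forward side of these values. In that fit limma gave a gene's own spread no weight (infinite prior degrees of freedom, 1 residual), so these p-values may be too small. There 9.12% of all genes were called lower and 8.84% higher, and replicate 1 was represented by a single array in 1 dye orientation. Col17a1, positive on all 4 arrays, was not called there or in any other of 16 alternative fits.

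As a group, 2 of the 8 genes had a mean ratio above 0, against 51.4% of all tested genes. The median ratio was -0.02 and the median size of a ratio 0.046, while over all genes these were 0.0025 and 0.046. The median half-width of the 95% intervals was 0.13 for the 8 genes and 0.12 for all genes.

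The genes that the anchoring complex works with were taken from 7 further lists, 69 genes in all, of which 58 were tested. Of these, 29 had a ratio above 0 and 29 below, and none passed the adjusted threshold in limma. At an unadjusted p under 0.05 there were 6 of 58 (10.3%, against 6.30% of all tested genes). Other laminin chains had a median ratio of -0.03 over 6 tested genes. The largest in size was Lamb1, the beta 1 chain, at -0.11 ± 0.11 (SD, n = 2).

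Among 9 tested basement membrane and anchoring fibril genes the median was -0.01. Hspg2, which encodes perlecan, was positive on all 4 arrays (0.02, 0.16, 0.24 and 0.10) with a mean of 0.13 and an adjusted p of 0.750 (limma). Col7a1, the collagen of the anchoring fibrils below the hemidesmosome, had ratios of -0.31 and -0.41 on forward arrays against 0.29 and 0.23 on swapped ones. It showed the same dye pattern as Lama3 and Itgb4, and its mean was -0.05.

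Other laminin receptors and tetraspanins had the highest list median, 0.08, with 7 of 11 tested genes above 0 and none called. Bcam, a Lutheran glycoprotein that binds laminin alpha 5, had a mean of 0.16 ± 0.28 that came from 1 array at 1.08. Sdc4, a heparan sulphate syndecan, had a mean of 0.16 ± 0.19. Itga3, the alpha chain of the other main laminin-332 receptor, had a mean of 0.11 ± 0.04 (SD, n = 2), and its partner chain Itgb1 had -0.07 ± 0.13. The ratio of Itga6 minus that of Itga3 was -0.09 in replicate 1 and -0.08 in replicate 2, but ranged from -0.60 to 0.43 over single arrays.

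Several of these means also rested on the forward array of replicate 2: without it Bcam was at -0.13, Sdc4 at 0.0026 and Itga3 at -0.01.

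Of the plakin relatives and the keratins they hold, Krt14 had a mean of 0.19 ± 0.12 (SD, n = 2) and its partner Krt5 had 0.00042 ± 0.036, with neither called. Ppl, the cornified envelope protein periplakin, had a mean of -0.16 ± 0.24. Without the forward array of replicate 2, where they were at 0.73 and -0.70, Krt14 was at 0.03 and Ppl at -0.0047. Of the focal adhesion genes, Lims1 (PINCH) had -0.18 ± 0.16 and its binding partner Ilk 0.10. Of the proteases that cut laminin-332 or shed collagen XVII, Adam9 had the lowest mean, -0.07, and Plat the highest, 0.04. Among receptors and kinases that act on integrin beta 4, Met had a mean of 0.18 with 1 array at 0.60, and Egfr had -0.10 ± 0.15. Without that array Lims1 was at -0.09, Ilk at -0.0025, Met at 0.04 and Egfr at 0.05. Trp63, the master regulator of the basal keratinocyte programme, had a mean of -0.03.

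**Figure D5:**
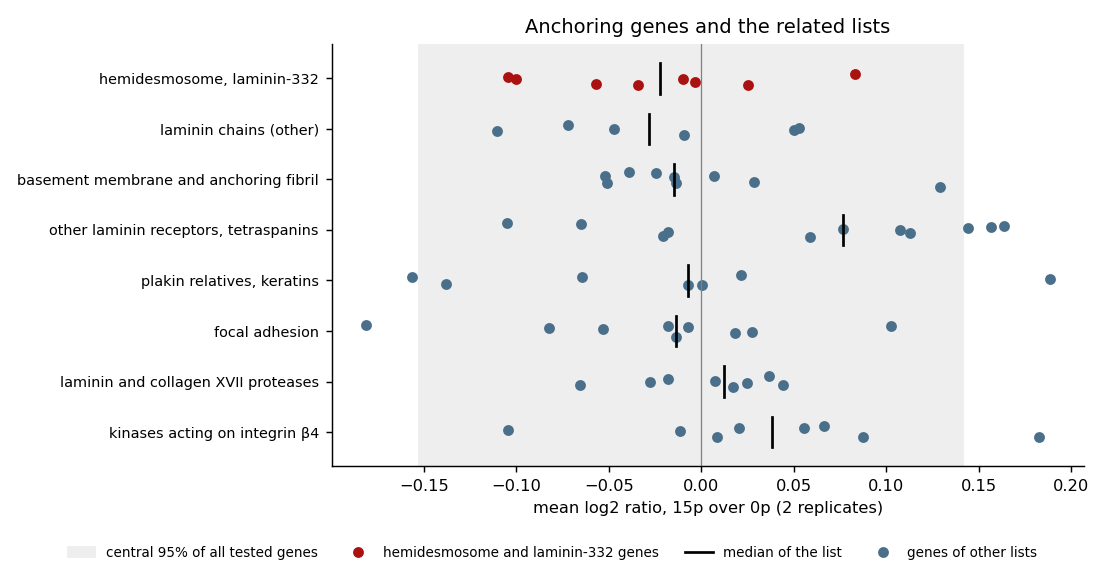
Mean log2 ratio of 15p over 0p over 2 replicates (x axis) for each tested gene of the anchoring complex (red) and of 7 related lists (blue), 1 list a row, with a black line at each list's median and a grey band for the central 95% of all tested genes, from -0.15 to 0.14. All 8 red points lie inside the band, and the medians of the lists lie between -0.03 and 0.08.

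All 6 basal keratinocyte markers, 3 of them among the 8 genes, were well above background on all arrays in both RNAs. Their summed normalised intensity was 312777 to 383946 in 15p cells and 305993 to 365034 in 0p cells. Of 8 bulge stem cell markers, Itga6, Krt15, Sox9 and Nfatc1 were well above background on all arrays in both RNAs, and Lgr5 and Lhx2 on none. Cd34, the gene of the second sort marker, was so on 0 of 4 arrays in 15p cells and 1 of 4 in 0p cells. The label of CD34+ cells is about protein on the surface, which a probe for RNA does not measure. How well the probe detects Cd34 was not tested. Of other cell types the fibroblast markers Dcn, Lum and Pdgfra, the endothelial Cdh5, Tek and Emcn, the nerve marker S100b and the suprabasal Krt1 were well above background on no array. The number of markers well above background on all arrays in both RNAs was 3 of 5 suprabasal, 1 of 6 fibroblast (Col3a1), 2 of 5 endothelial (Pecam1 and Kdr), 3 of 5 immune (Cd3e, Cd68 and Fcer1g), 2 of 5 nerve, 2 of 5 skeletal muscle (Acta1 and Mb) and 3 of 5 melanocyte markers (Mlana, Tyr and Mitf). By the same rule 16764 of the 31895 names on the array passed. These counts, those of basal and bulge markers included, therefore do not show which cells were present. The part of other cells in the ratios was not tested. Between 58.6% and 68.3% of spots were above background in Cy5 and between 55.5% and 65.1% in Cy3, no spot was saturated, and the number of arrays limits the precision.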

How the data were processed

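RNA of 15p and 0p cells was compared on 4 2-colour Agilent arrays. Mean spot intensity and local background intensity were deposited as Agilent Feature Extraction 10.7.3.1 wrote them, per the file headers. The deposited processed intensity and log10 ratio (Cy5 over Cy3, dye-normalised per the file headers) and the deposited value table, the same log10 ratio to within 0.0045, served as alternatives. Well-above-background, saturated and irregular flags are scores of 0 or 1, per the file headers. Probe positions are in mm9, as deposited, and exon or UTR annotation of that build was not used here.

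In R 4.3.3 with limma 3.58.1, intensities were corrected by normexp (offset 50) and normalised by loess. Control and irregular spots (154 to 286 an array) were dropped and the 39429 probes were averaged over spots. Probes had to be well above background in 1 of the RNAs throughout the 4 arrays (21646 probes), and the brightest stood for its gene (17362 genes). Symbols came from the RefSeq table of GRCm38.p6 for 26055 probes. Levels are log2 intensities after Aquantile scaling. Ratios were turned to 15p over 0p by the labelled dyes, averaged within each dye-swapped pair, and tested against 0 (n = 2, prior degrees of freedom 8.83, residual 1).

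The 8 genes and the lists were chosen with earlier results of these data known, so no list was tested. Named genes were all 8, both list genes with the largest ratios in size, and Col7a1, Itga3, Itgb1, Krt5, Krt14 and Trp63; some items that this rule names are not reported here. Each replicate number marks a dye-swapped pair. Over all genes, deviations of same-numbered arrays from the mean of their orientation correlated at -0.26. Arrays of a pair thus did not deviate alike, and averaging them may make the SDs and intervals too narrow. With crossed pairs the unadjusted p (limma) was 0.34 for Col17a1 and 0.24 for Dst, against 0.15 and 0.13 in the main fit. Scaling, filter, probe rule, model and left-out arrays were varied.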

Additional observations from a re-analysis of the deposited data

Results flagged for a closer look

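Of 31 probes checked on 4 arrays each, 2 had an array farther from the others than the 95% critical value of Dixon's test. Chance gives this for about 1 in 20 groups where all values of a group have the same centre and spread. That rate need not hold here, because ratios differed by dye orientation and the arrays differed in spread. The Cd151 probe over the stop codon was at 0.88 on the forward array of replicate 2, and Met was at 0.60 on the same array.

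In 11 of the 31 the forward arrays (15p in Cy5) lay on one side of 0 and the swapped arrays on the other, a difference that was not tested. Among all tested genes 32.2% had such opposite signs. The forward minus the swapped mean log2 ratio was -0.24 for Itga6, -0.48 for Itgb4, 0.15 for the Dst probe of variant b and -0.26 for Plec. It was -0.57 for the tested Lama3 probe and 0.24 for the other Lama3 probe. Among the related genes it was -0.62 for Col7a1, -0.49 for Ppl, -0.61 for Lims1, -0.23 for Adam9 and 0.57 for Krt5.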

How the results depend on the processing

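No gene was called in 10 of 17 alternative fits (limma). Without loess 3 genes were called higher and 2 lower, and without the filter on dim probes 1 lower. The fit of all 4 arrays with dye and replicate block called 7 higher and 53 lower, and the crossed pairing of dye swaps, chosen after seeing the data, gave the same counts. Leaving out 1 array gave 0 to 1535 genes higher and 0 to 1583 lower. The highest counts were without the forward array of replicate 1, and without that of replicate 2 they were 42 and 46. In those fits 1 replicate had a single dye orientation. In 4 fits (replicate block, crossed pairing and without either forward array) the prior degrees of freedom were infinite, so their p-values may be too small and their counts too high. The median ratio of the 8 genes was 0.028 without loess, and -0.031 to 0.0024 with 1 array or replicate left out. Over 144 alternative values of single genes, 13 turned sign, 4 of them with a whole replicate left out, and 3 of the 128 with a test were called. Without loess the ratio was 0.039 for Itgb4, 0.018 for Plec and 0.037 for Cd151, and the deposited values gave Cd151 a ratio of 0.00010. With 1 array or replicate left out, Itga6 ranged from -0.0040 to 0.054, Dst from -0.21 to -0.0020, Lama3 from -0.19 to -0.0086, Itgb4 ranged from -0.077 to 0.071, Plec from -0.096 to 0.027, Cd151 from -0.096 to 0.075 and Lamb3 from -0.20 to 0.089. The cause of these changes was not tested. Col17a1, Dst and Lama3 kept their direction in all 18 alternatives run for each, and Itga6 turned in 1, without replicate 2.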

Other observations

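The motif AATAAA, the usual polyadenylation signal, was looked for on both strands of all 39429 probes. Read along the probe it was found in 12.6% of them, and in 3 of the 12 probes of the anchoring genes, those of Itgb4, Lama3 and Lamb3. On the opposite strand it was found in 4.03% of all probes and in 1 of the 12, that of Col17a1. These matches are a description of the probes and say nothing of where transcripts end in these cells.

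The probes of 1 gene had mean ratios that lay 0.056 apart (median over 3590 genes with several kept probes). The other minus the tested probe was 0.14 for Lama3, 0.10 for Dst, -0.01 for Cd151 and -0.0047 for Plec. The other Plec probe was not well above background on every array, so its small difference does not show that the probes matched.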
